A study of Danio rerio with 18 samples.

Results

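Sorted endothelial cells were compared directly with endothelial ribosome-bound RNA in zebrafish embryos, with no whole-embryo reference subtracted from either. The comparison takes 6 of the 18 libraries of the study: the 3 FACS sorted libraries, made from endothelial cells that fluorescence-activated cell sorting isolated by their GFP, and the 3 AngioTag IP libraries, made from RNA that an HA antibody pulled down with tagged ribosomes. Both groups came from pooled AngioTag embryos at 24 hours post fertilization (hpf) that carried the transgene, so no group lacked it. From knowledge of the study and not from the labels, the AngioTag line uses the kdrl promoter to make GFP and an HA-tagged rpl10a in endothelium. The whole-embryo references of the same line, FACS total (total RNA) and AngioTag input (RNA before the pull-down), have 3 libraries each and share no library with the endothelial groups. The labels do not say whether FACS total embryos were dissociated. The labels number the samples 1 to 3, and nothing says that these were separate pools, so p-values measure the spread between the samples, which may be technical. RNA was either selected for poly(A) or depleted of ribosomal RNA before stranded library preparation; which of these each library had is not stated, so this step and the way of collecting RNA cannot be told apart.

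Sorting needs living cells that have been separated from one another and held in suspension, and it collects their RNA whether or not it sits on ribosomes. Ribosome affinity purification starts from a lysate of whole embryos and keeps messages bound to cytosolic ribosomes that carry the tag. The organelle's own ribosomes read the messages of the mitochondrial genome, and those ribosomes do not contain the tagged cytosolic protein. Immediate early genes, among them the Fos and Jun transcription factors that pair as AP-1, are transcribed within minutes of a stimulus without new protein synthesis, and tissue dissociation is a known stimulus.

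Levels are normalized counts scaled over all libraries to a common total (CPM), fold changes are log2 of FACS sorted over AngioTag IP with a standard error (SE) from edgeR, and a gene passed the test at an adjusted p below 0.05. Library totals ran from 18.3 to 41.3 M counts in FACS sorted and from 20.7 to 42.1 M in the AngioTag IP. Several libraries stood apart. In FACS sorted 2, 15.27% of counts fell on zgc:158463, and in AngioTag IP 1 it was 4.19%, against at most 0.274% in the other libraries of these groups. FACS sorted 3 was the highest of the sorted samples for 27 of 27 erythroid genes and the lowest for 13 of 14 AP-1 genes. FACS total 3 was also the highest of its group for 22 of those 27 and the lowest for 13 of those 14. Both preparations held endothelial RNA: kdrl, the VEGF receptor gene (ENSDARG00000105215), had 1348, 891 and 1154 CPM in FACS sorted and 414, 401 and 703 CPM in the AngioTag IP, against 28.4 to 36.8 CPM in FACS total and 23.5 to 30.0 CPM in AngioTag input. The sorted samples all lay above the IP samples, with a log2 fold change of 1.19 ± 0.30 (adjusted p = 0.00906).

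Of 18519 genes tested, 5179 (28.0%) were higher and 4409 (23.8%) lower in FACS sorted than in the AngioTag IP (9588 genes, or 51.8%, in either direction). The whole-embryo references differed in the same directions. Of 19266 genes tested there, 4848 (25.2%) were higher and 4075 (21.2%) lower in FACS total than in AngioTag input (46.3% in either direction). Among 18006 genes tested in both, 3594 were higher in both, which is 72.5% of those higher in FACS sorted and 80.5% of those higher in FACS total. Genes lower in both numbered 2619, or 59.6% of those lower in FACS sorted and 66.4% of those lower in FACS total. Opposite calls were few, with 36 genes higher in FACS sorted but lower in FACS total and 10 the other way. Across these 18006 genes the fold changes had a Pearson r of 0.85, a description over genes that share libraries and depth. A test of the difference between the differences (FACS sorted over AngioTag IP, minus FACS total over AngioTag input) called 1031 of 20153 genes higher (5.12%) and 605 lower (3.00%), 8.12% in either direction. Higher genes made up 63.0% of these calls, against 77.0% with median-of-ratios scaling and 75.8% with mitochondrially encoded genes and zgc:158463 left out. That test was sensitive to single libraries: without AngioTag input 1 it called 403 and 99 genes, and without AngioTag input 3 it called 404 and 112.

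**Figure D1:**
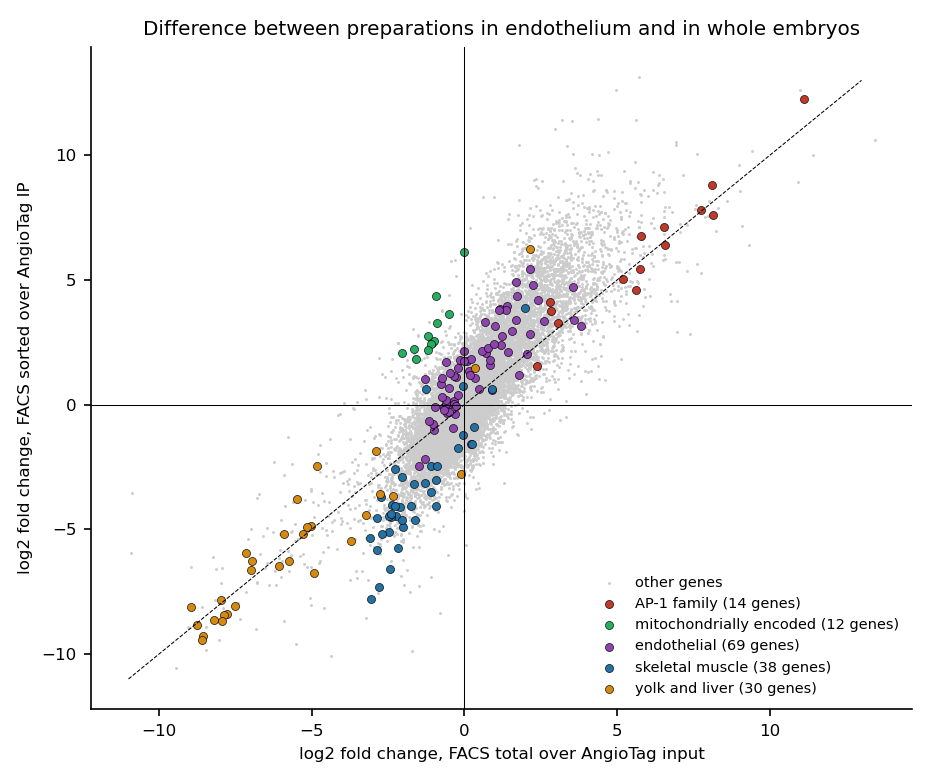
Log2 fold change of FACS sorted over AngioTag IP (vertical axis) against that of FACS total over AngioTag input (horizontal axis), with 1 point per gene tested in both, 5 gene lists coloured and the line of equal change dashed. The medians of AP-1 and yolk genes lie near the dashed line. In the test of the difference, single genes ran from -1.16 to 1.25 (AP-1) and from -2.75 to 3.98 (yolk and liver). Mitochondrially encoded genes lie at 1.84 to 6.13 on the vertical axis and at -2.04 to -0.01 on the horizontal axis.

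AP-1 genes rose in sorted cells. All 14 AP-1 family genes tested rose, against 28.0% of all genes, with a median log2 fold change of 5.91 where the median of all genes was 0.01. BATF, the remaining member, was at or below 0.0762 CPM in sorted cells and did not pass the low-count filter. The level of fosab (FOS in the name table, ENSDARG00000031683), the zebrafish c-Fos gene, was 1220, 1554 and 239 CPM in FACS sorted, against 3.21, 5.45 and 4.93 CPM in the AngioTag IP. Every sorted sample lay far above every IP sample, although FACS sorted 3 stood well below the other sorted samples. The log2 fold change was 7.82 ± 0.74 (adjusted p = 5.62e-05).

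The JUNB gene ENSDARG00000104773, which encodes a Jun partner of Fos, had the most counts of the family. Its levels were 3213, 3770 and 688 CPM in FACS sorted and 23.2, 25.2 and 24.9 CPM in the AngioTag IP (6.74 ± 0.64, adjusted p = 5.85e-05). The Fos-related FOSL1 had 860, 789 and 319 CPM in FACS sorted and 0.516, 2.45 and 1.4 CPM in the AngioTag IP (8.80 ± 0.69, adjusted p = 2.59e-05). In both genes the groups were separate and FACS sorted 3 was the lowest sorted sample. FOSB was nearly absent from ribosome-bound RNA: it had 192, 143 and 29.0 CPM in FACS sorted, and 2 counts in all 3 IP libraries together. The ratio of the group levels was 5618, with a 95% counting interval of 1555 to 46389. JUN, the c-Jun gene, had 1367, 1663 and 240 CPM in FACS sorted and 78.4, 75.1 and 96.8 CPM in the AngioTag IP (3.74 ± 0.62, adjusted p = 0.00102). ATF3, a stress-induced partner of Jun (6.40 ± 0.64), FOSL2 (5.02 ± 0.40) and the small Maf gene maff (3.29 ± 0.50) rose too. JUND, which cells express without a stimulus, was the member whose groups overlapped. It had 213, 182 and 62.7 CPM in FACS sorted and 85.9, 33.6 and 37.6 CPM in the AngioTag IP (1.56 ± 0.51, adjusted p = 0.0275), and over the alternatives its adjusted p ran from 0.00249 to 0.101, with the highest value when AngioTag IP 2 was left out. It also lost its call without AngioTag IP 3 (0.0979), FACS sorted 1 (0.0957) or FACS sorted 2 (0.0595).

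**Figure D2:**
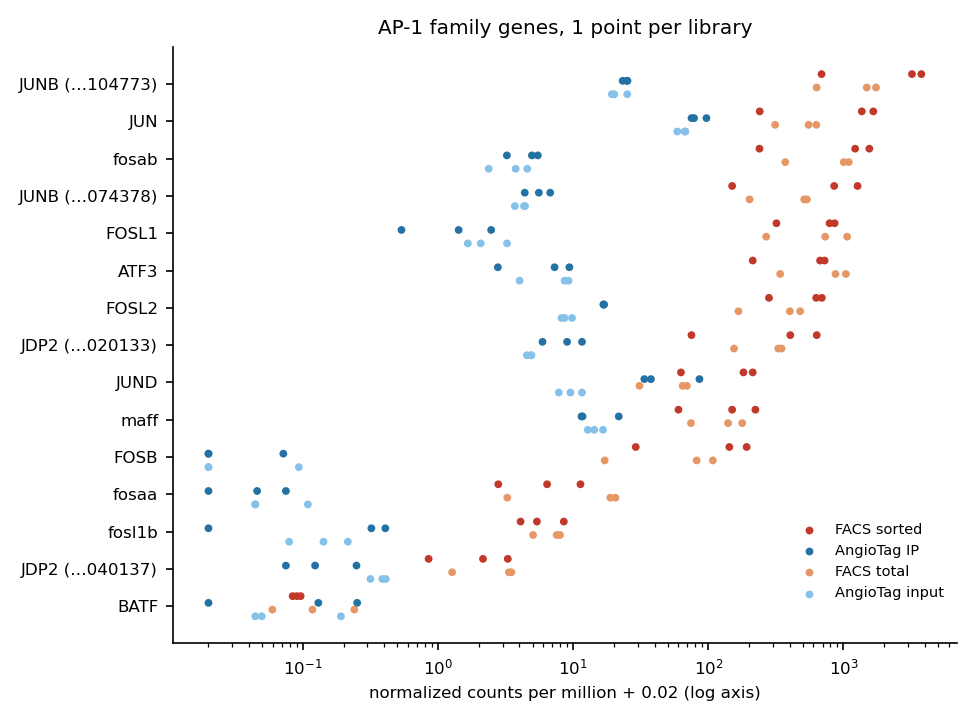
Normalized counts (CPM) plus 0.02 on a log axis for the 15 AP-1 family genes, 1 point per library, coloured by group. Genes that share a symbol carry the end of their Ensembl identifier. FACS sorted and FACS total libraries lie to the right of the AngioTag IP and input libraries in all genes but JUND, where FACS sorted 3 lies within the IP range, and BATF.

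Whole embryos showed the same gap. The summed level of the 15 AP-1 genes was 9983, 11472 and 2366 CPM in FACS sorted, 243, 195 and 220 CPM in the AngioTag IP, 6513, 7012 and 2583 CPM in FACS total, and 146, 135 and 143 CPM in AngioTag input. The RiboTag samples, from the line used for the whole-embryo translatome, had 181, 137 and 180 CPM in the IP and 167, 142 and 142 CPM in the input. Each FACS sample was above each sample of the other groups. Every AngioTag IP sample was above every AngioTag input sample, and the RiboTag IP and input samples overlapped. All 14 members tested also rose in FACS total over AngioTag input, against 25.2% of all genes, with a median of 5.76. For fosab the levels were 1005, 1094 and 371 CPM in FACS total and 3.73, 2.35 and 4.55 CPM in AngioTag input. For the difference between the differences edgeR called 0 of the 14 genes (0 at an unadjusted p below 0.05), against 8.12% of all genes, and DESeq2 called 0. The value for fosab was -0.05 ± 0.76 (adjusted p = 0.976). With so low a share over all genes, 0 of 14 does not show that the differences were equal. No cause of these levels was tested.

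The other immediate early genes followed, with 35 of 41 tested higher, against 28.0% of all genes, and a median of 2.63. The zinc finger gene egr1 had 385, 443 and 69.9 CPM in FACS sorted and 8.26, 11.0 and 15.4 CPM in the AngioTag IP (4.73 ± 0.65, adjusted p = 0.000378). The orphan receptor gene NR4A1 (4.24 ± 0.37), ier2b (4.35 ± 0.67), GADD45B (ENSDARG00000013576, 4.36 ± 0.49) and KLF6 (3.55 ± 0.39) rose. So did the phosphatase genes that switch off MAP kinases, DUSP4 (6.19 ± 0.39) and DUSP1 (2.37 ± 0.44). One SOCS3 gene, an inhibitor of cytokine signalling (ENSDARG00000025428), had 74.5, 92.2 and 16.8 CPM in FACS sorted and no count in the IP libraries, so it was at least 1888-fold higher against a floor of 3 counts over the IP group. Its levels in FACS total were 17.8, 0 and 0.0879 CPM, so its samples disagreed there, and it shares its symbol with another gene, SOCS3 ENSDARG00000026611, which had 196, 215 and 30.7 CPM in FACS sorted and 9.24, 13.1 and 12 CPM in the AngioTag IP (3.71 ± 0.62, adjusted p = 0.00114). Both SOCS3 genes were high in the sorted samples, and their counts may share reads. Of the immediate early genes tested, 33 rose in both the endothelial and the whole-embryo comparison, as did 3594 of 18006 genes.

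Genes of NF-kB signalling and inflammation rose in 19 of 20 cases, against 28.0% of all genes (median 3.73). In both comparisons 18 rose, as did 3594 of 18006 genes tested in both. The cytokine gene il1b had 4.76, 6.78 and 5.41 CPM in FACS sorted and 0.229, 0.232 and 0.493 CPM in the AngioTag IP (4.14 ± 0.54, adjusted p = 0.000297). The groups did not overlap. Its level was similar in whole embryos, at 4.24, 3.79 and 4.18 CPM in FACS total and 0.296, 0.220 and 0.219 CPM in AngioTag input. The interleukin gene il11b (10.02 ± 0.89), the chemokine gene cxcl8a (4.60 ± 0.99) and the NF-kB inhibitor gene nfkbiaa (3.32 ± 0.75) rose as well. The interleukin gene il11a had 35.6, 28.1 and 10.1 CPM in FACS sorted and no count in the IP, at least 760-fold higher against the same floor. TNFAIP3, a brake on NF-kB, had 2 IP counts and a ratio of 725 (95% counting interval 201 to 5984).

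Other stress lists lay nearer to the shares of all genes (28.0% higher, 23.8% lower), and their counts are given as a description. Among heat shock and chaperone genes 12 of 32 rose and 6 fell, with a median of 0.60 that was 0.01 without FACS sorted 3. The inducible hsp70l had 19.3, 43.1 and 37.2 CPM in FACS sorted and 0.975, 0.826 and 0.712 CPM in the AngioTag IP (5.35 ± 0.43, adjusted p = 2.63e-05), while the small heat shock protein genes hspb11 (-3.70 ± 0.53) and HSPB1 (-2.10 ± 0.47) fell. Among p53 and apoptosis genes 10 of 21 rose and 5 fell, with the p53 targets TP53INP1 (5.36 ± 0.40), cdkn1a (3.22 ± 0.57) and pmaip1 (2.83 ± 0.31) among the risers. DDIT3, the CHOP factor of the unfolded protein response, had 90, 51.9 and 49.2 CPM in FACS sorted and 0, 0.413 and 0.493 CPM in the AngioTag IP (7.57 ± 0.67, adjusted p = 4.06e-05). Sorted samples were again all higher, within a list of endoplasmic reticulum genes whose counts, 11 higher and 13 lower of 50, were near the shares of all genes (7 without FACS sorted 1). In the list of hypoxia and glycolysis 10 of 32 rose, near the 28.0% of all genes, among them PFKFB3, the kinase that raises glycolytic flux (4.93 ± 0.41), and HK1, a hexokinase (2.14 ± 0.33). Another 4 fell, among them the glycolytic enzymes ALDOA (-3.32 ± 0.29) and GAPDH (-2.82 ± 0.27).

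Mitochondrially encoded genes were higher in sorted cells than in the IP, whereas the median difference between the whole-embryo samples ran the other way. They held 2.83%, 2.08% and 2.21% of counts in FACS sorted and 0.288%, 0.279% and 0.247% in the AngioTag IP. The share was 3.44%, 2.19% and 2.65% in FACS total and 4.47%, 4.35% and 3.74% in AngioTag input, and 0.108% to 0.161% in the RiboTag IP. Both pull-downs were below every sample that was not pulled down.

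The cytochrome c oxidase subunit gene mt-co1 (MT-CO1 in the name table, ENSDARG00000063905) had 10834, 9112 and 9054 CPM in FACS sorted and 945, 802 and 600 CPM in the AngioTag IP (3.65 ± 0.29, adjusted p = 2.63e-05). The sorted samples lay close together and every one was above every IP sample. In whole embryos the same gene had 9199, 6392 and 9350 CPM in FACS total and 11382, 12094 and 9489 CPM in AngioTag input, where it did not pass the test (-0.50, adjusted p = 0.172). The difference between the differences was 4.04 ± 0.37 (adjusted p = 0.000248). All 12 mitochondrially encoded genes tested rose in FACS sorted over AngioTag IP, against 28.0% of all genes, with a median of 2.52. All 12 had sorted samples above the IP samples (background for that separation, 31.7% of genes). Among subunits of complex I the log2 fold changes were wide apart, with mt-nd4l at 6.13 ± 0.42, MT-ND5 at 4.34 ± 0.42, MT-ND1 at 2.48 ± 0.26 and MT-ND6 at 2.05 ± 0.29. The ATP synthase subunit genes were MT-ATP6 at 2.44 ± 0.27 and mt-atp8, the lowest of the 12, at 1.84 ± 0.54. The rise of mt-atp8 (adjusted p = 0.0176) had an adjusted p of 0.000562 to 0.114 over the alternatives, the highest with all 18 libraries in 1 fit, and it lost its call without FACS sorted 1 (0.0732), AngioTag IP 2 (0.0706) or AngioTag IP 3 (0.0694). MT-CYB was listed at 0 counts in all 6 libraries and could not be tested. In FACS total over AngioTag input, 9 of the 12 fell, against 21.2% of all genes, and the median was -1.09. The count of falls was 4 without AngioTag input 1, 4 without AngioTag input 2 and 5 without FACS total 2. The test of the difference called 11 of 12 higher, against 5.12% of all genes.

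**Figure D3:**
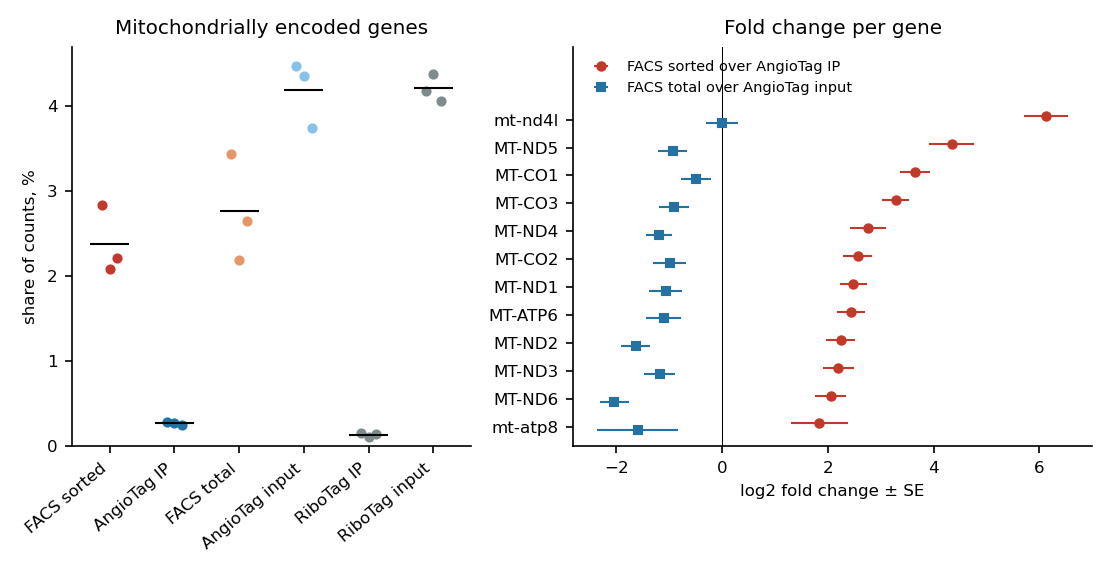
Left, share of counts in mitochondrially encoded genes per library (points) and group mean (line) for all 6 groups. Right, log2 fold change with its standard error for the 12 genes tested: they lie at 1.84 to 6.13 for FACS sorted over AngioTag IP (circles) and between -2.04 and -0.01 for FACS total over AngioTag input (squares).

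Nuclear genes for the same organelle went the other way. Of 76 nuclear-encoded respiratory chain genes tested 64 fell, against 23.8% of all genes, with a median of -1.34. The complex I subunit NDUFB7 had 29.1, 35.7 and 34.4 CPM in FACS sorted and 234, 121 and 172 CPM in the AngioTag IP (-2.39 ± 0.31, adjusted p = 0.000281), and ndufb3 changed by -2.22 ± 0.29. Of 72 mitochondrial ribosomal protein genes 70 fell (median -1.50), led by MRPL17 (-2.67 ± 0.38) and MRPL41 (-2.53 ± 0.29). The sorted samples were below all IP samples for 70 genes in each of these lists, where 31.4% of all genes were so arranged. In whole embryos 49 of 77 respiratory chain and 51 of 72 mitochondrial ribosomal genes fell as well, against 21.2% of all genes. These counts changed with single libraries. They were 24 and 32 without AngioTag input 2, with medians of -0.87 and -0.93, against -0.94 and -0.97 with all libraries. Without FACS total 1 they were 25 and 30, with medians of -0.84 and -0.89. Without FACS total 3, 74 respiratory chain genes fell (median -1.27). For the difference between the differences edgeR called 0 of either list, where 3.00% of all genes were called lower. With so low a share, 0 does not show that the differences were equal. It called 6 mitochondrial ribosomal genes lower without AngioTag IP 2 and 7 without FACS total 2. In the lower direction 8 of 77 respiratory chain and 28 of 72 mitochondrial ribosomal genes had an unadjusted p below 0.05. Over all genes 5227 of 20153 had such a p in either direction, and a count for the lower direction alone was not made. DESeq2 called 0 of either list.

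Cytosolic ribosomal protein genes fell in 57 of 79 cases, against 23.8% of all genes, with a median of -0.91. Their share of counts was 10.9% to 12.6% in FACS sorted and 17.7% to 23.9% in the AngioTag IP. It was 12.4% to 19.6% in FACS total and 18.9% to 21.2% in AngioTag input, so the IP lay near its input. RPL26 had 1266, 1832 and 1347 CPM in FACS sorted and 6073, 4497 and 3510 CPM in the AngioTag IP (-1.64 ± 0.30, adjusted p = 0.00183). Without FACS sorted 1, 25 genes fell and the median was -0.82. In whole embryos 18 of 79 fell (median -0.66), near the 21.2% of all genes, or 1 to 78 with any 1 library left out. The test of the difference called 0 of 79, against 8.12% of all genes. RPL10A, whose protein carries the tag in the transgene, had 2542, 3241 and 2348 CPM in FACS sorted and 5949, 6665 and 8257 CPM in the AngioTag IP (-1.33 ± 0.25, adjusted p = 0.00226), and the counts cannot tell the gene from the transgene. Among translation factors 12 of 47 fell, near the 23.8% of all genes, and 4 rose, but 2 fell without FACS sorted 1, 6 without FACS sorted 2, 6 without AngioTag IP 1 and 7 without AngioTag IP 3. The poly(A)-binding protein gene pabpc1b fell (-2.18 ± 0.52) and the subunit-joining factor gene eif5b rose (2.00 ± 0.34). Of 51 proteasome subunit genes 22 fell, against 23.8% of all genes, and 14 fell without FACS sorted 1. Of 13 histone genes 8 fell, against the same 23.8%, but 4 without FACS sorted 1, AngioTag IP 1 or AngioTag IP 3. Near-identical histone copies may share reads. The variant histone gene h3f3b.1 had 167, 194 and 149 CPM in FACS sorted and 609, 551 and 666 CPM in the AngioTag IP (-1.81 ± 0.25, adjusted p = 0.000381), a complete separation.

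Most genes of the yolk and liver, skeletal muscle, cardiac, lens, epidermal and neural lists were lower in sorted cells, against 23.8% of all genes, with the lowest medians in the yolk and liver and skeletal muscle lists. In bulk RNA, fewer cells of a type and less RNA per cell cannot be told apart. A fold change also does not show which of the preparations it comes from. Mean summed levels in the AngioTag IP and its input were 40853 and 44130 CPM for muscle and 30486 and 37181 CPM for epidermis. They were 6831 and 6437 CPM for neural and 202 and 182 CPM for cardiac genes. For lens they were 202 and 445 CPM, and for yolk and liver 5253 and 8442 CPM. Whether the IP kept RNA of other cells was not tested. Of 30 yolk and liver genes 28 fell, with a median of -6.11. The apolipoprotein gene apobb.1 (ENSDARG00000022767), which the yolk layer uses to export lipid, had 0.234, 0.320 and 1.40 CPM in FACS sorted and 257, 370 and 341 CPM in the AngioTag IP (-8.84 ± 0.70, adjusted p = 2.63e-05). This loss was as large in whole embryos, with 3.00, 0.956 and 2.26 CPM in FACS total and 654, 906 and 931 CPM in AngioTag input, and the difference between the differences was -0.20 ± 0.70 (adjusted p = 0.888). Other apolipoprotein genes were among the largest falls of all genes, namely apoa4b.1 (-9.44 ± 0.51), apoa1a (-8.65 ± 0.47), apoc2 (-8.45 ± 0.67) and apoa2 (-8.41 ± 0.60), and the near-identical copy apoa4b.2 (-9.26 ± 0.78) may share reads with apoa4b.1. Of the list, 27 genes fell in both comparisons, as did 2619 of 18006 genes tested in both. The risers were vtg3, a vitellogenin (6.23 ± 0.68), and ctsla, a cathepsin (1.45 ± 0.34), and ctsla, with 3383, 3807 and 1840 CPM, held most of the list's summed level of 3666, 4123 and 2138 CPM in FACS sorted. In the AngioTag IP the list summed to 5743, 4859 and 5157 CPM.

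Skeletal muscle genes fell in 32 of 38 cases, with a median of -4.05. The fast myosin heavy chain gene myhz1.2 had 11.2, 17.6 and 10.2 CPM in FACS sorted, 2549, 3451 and 2831 CPM in the AngioTag IP, 119, 89.2 and 252 CPM in FACS total, and 675, 1397 and 1545 CPM in AngioTag input. Its IP samples were above every sample of the other 3 groups. The log2 fold change was -7.79 ± 0.38 (adjusted p = 1.01e-05), and the neighbouring copies myhz1.1 (-7.32 ± 0.35) and myhz1.3 (-6.59 ± 0.31), which may share reads with it, fell alike. Cardiac-type actin actc1b, which zebrafish skeletal muscle uses, changed by -4.55 ± 0.29, and the myogenic factor MYOD1 by -2.46 ± 0.28. The 43 muscle genes summed to 1218, 1100 and 1335 CPM in FACS sorted, 42649, 39810 and 40098 CPM in the AngioTag IP, 7727, 4208 and 17810 CPM in FACS total, and 35953, 46809 and 49627 CPM in AngioTag input. The muscle level in the IP was within the range of its input, whereas the sorted samples were below all FACS total samples. Whole embryos differed in the same direction, with 24 of 40 genes lower, against 21.2% of all genes, and a median of -2.01. The test of the difference called 19 of 40 genes lower, against 3.00% of all genes. That count was 5 without AngioTag input 1, and 9 without AngioTag input 3 or FACS sorted 1. It was 10 without AngioTag input 2 or AngioTag IP 3, and 12 without FACS sorted 3, FACS total 1 or FACS total 3. The median of that difference was -1.96 without AngioTag input 1 and -1.29 without FACS total 3, against -2.09 with all libraries. The exception was mymx, a fusion factor of muscle cells, with 40.3, 26.9 and 21.4 CPM in FACS sorted and 3.38, 1.96 and 0.849 CPM in the AngioTag IP (3.88 ± 0.53, adjusted p = 0.000356).

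Of 51 neural genes 36 fell (median -1.74). The neural progenitor factor ZIC2 had 7.50, 6.39 and 5.03 CPM in FACS sorted and 66.0, 81.4 and 106 CPM in the AngioTag IP (-3.71 ± 0.30, adjusted p = 2.63e-05), and ascl1b (-3.85 ± 0.44), OLIG2 (-3.20 ± 0.51) and SOX3 (-2.02 ± 0.36) were lower too. ELAVL3, an RNA-binding protein of neurons, rose, with 42.5, 23.1 and 41.7 CPM in FACS sorted and 5.91, 16.4 and 11.0 CPM in the AngioTag IP (1.72 ± 0.40, adjusted p = 0.00616), and it also rose in whole embryos (2.44, adjusted p = 0.00345). The test of the difference called 21 of 51 neural genes lower, against 3.00% of all genes. That count was 4 without AngioTag input 1 or 3, and 11 without AngioTag input 2, FACS total 1 or FACS total 2. It was 12 without FACS sorted 1 or AngioTag IP 2. The median of that difference was -1.26 without AngioTag input 1, and -1.23 both without AngioTag input 3 and with all libraries. Epidermal and periderm genes fell in 26 of 39 cases (median -1.90), and the example with the most counts was krt4, a surface keratin, with 841, 1718 and 433 CPM in FACS sorted and 5837, 14026 and 7209 CPM in the AngioTag IP (-3.14 ± 0.53, adjusted p = 0.0012). E-cadherin, cdh1, rose (1.78 ± 0.36), as it did in whole embryos (1.94). Cardiac genes fell in 8 of 14 cases, led by the cardiac myosin light chain MYL7 (-4.61 ± 0.64) and the atrial myosin heavy chain MYH6 (-4.40 ± 0.32), and lens genes in 12 of 15, led by the crystallin cryba1b (-2.73 ± 0.38). Of 10 hatching gland genes 4 fell, against 23.8% of all genes, among them the hatching enzyme he1.1 (-2.82 ± 0.52), whose copies may share reads. PRDM1 and XBP1, the factors also used outside that gland, rose (2.93 ± 0.39 and 2.38 ± 0.28). For notochord and cartilage, 5 of 17 genes were lower, near the 23.8% of all genes, or 12 without FACS sorted 2. The cartilage collagen COL2A1 was lower (-2.08 ± 0.42). For the pronephros, 8 of 18 genes were lower, against 23.8% of all genes, and 2 higher (5 and 1 without AngioTag IP 2). The kidney cadherin CDH17 fell (-2.17 ± 0.43).

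**Figure D4:**
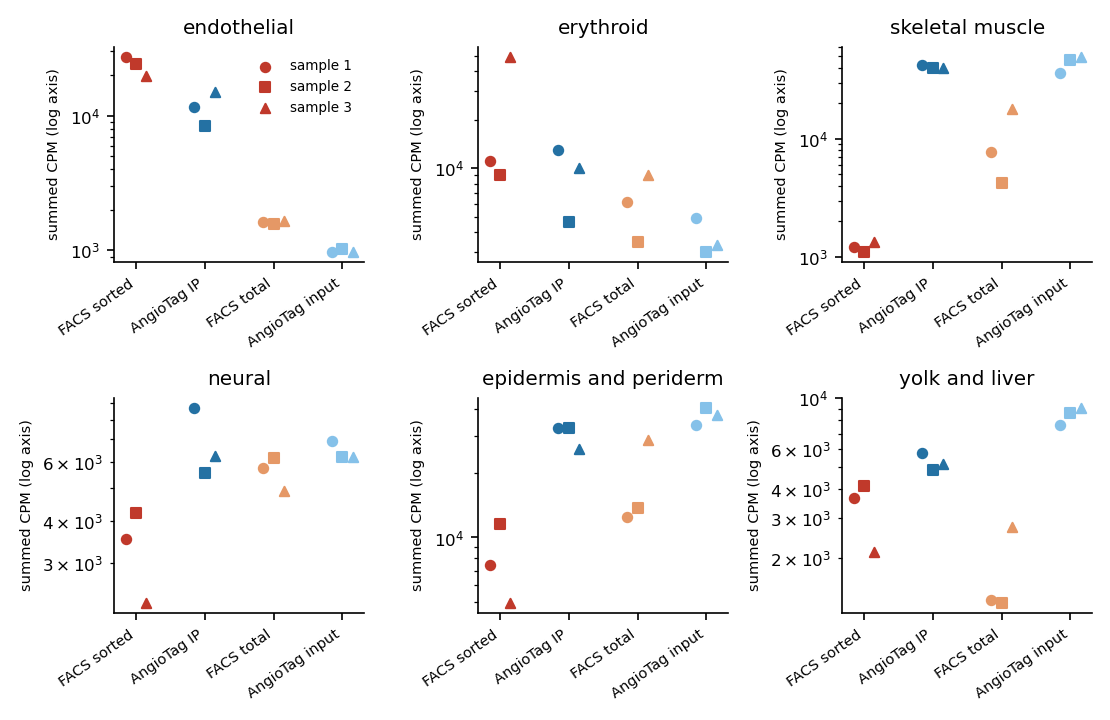
Summed CPM of 6 tissue lists per library on log axes, by group, with sample numbers as marker shapes. Sorted samples have the highest endothelial and the lowest muscle sums, FACS sorted 3 alone reaches 49201 CPM of erythroid genes, and muscle sums of the AngioTag IP lie near those of its input.

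Endothelial genes were mostly higher in sorted cells. Of 73 tested 45 rose, against 28.0% of all genes, and 5 fell, against 23.8% (3 without AngioTag IP 3, 2 without FACS sorted 1). The median was 1.33, and the 74 genes matched summed to 27416, 24109 and 19631 CPM in FACS sorted and 11554, 8404 and 14883 CPM in the AngioTag IP. All sorted samples were above all IP samples, and both groups were far above FACS total (1566 to 1639 CPM) and AngioTag input (971 to 1021 CPM). The rise was uneven among genes. Surface sialomucin cd34 had 722, 350 and 781 CPM in FACS sorted and 15.4, 12.7 and 16 CPM in the AngioTag IP (5.42 ± 0.39, adjusted p = 1.97e-05). The transcription factor sox18 had 906, 847 and 291 CPM in FACS sorted and 23.2, 19.5 and 26.9 CPM in the AngioTag IP (4.90 ± 0.47, adjusted p = 5.85e-05). Neither gene's groups overlapped. ETS1, an ETS factor (4.78 ± 0.31), the VEGF receptor genes KDR (3.83 ± 0.33) and flt1 (2.75 ± 0.45), and the receptor gene TIE1 (2.95 ± 0.31) also rose. FLI1, another ETS factor, had 856, 635 and 772 CPM in FACS sorted and 232, 176 and 272 CPM in the AngioTag IP (1.76 ± 0.27, adjusted p = 0.000738).

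Some highly counted endothelial genes did not pass the test. VE-cadherin, cdh5, had 1465, 913 and 1443 CPM in FACS sorted and 998, 777 and 1373 CPM in the AngioTag IP (0.31 ± 0.30, adjusted p = 0.413), and its groups overlapped. The arterial factor HEY2 had 144, 106 and 84.3 CPM in FACS sorted and 93.3, 68.8 and 128 CPM in the AngioTag IP (0.23 ± 0.31, adjusted p = 0.539). In whole embryos 26 of 69 endothelial genes rose, against 25.2% of all genes, and 7 fell, against 21.2%, with a median of 0.17. Falls numbered 25 without FACS total 3 but 4 without AngioTag input 2 or 3. The test of the difference called 22 of 73 endothelial genes higher, against 5.12% of all genes, and 1 lower, against 3.00%. The higher count was 12 without AngioTag input 3, 13 without AngioTag input 1 or FACS sorted 1, and 14 without FACS total 1. DESeq2 called 34 higher. The edgeR test called cd34 (3.17 ± 0.45, adjusted p = 0.00195) and sox18 (3.09 ± 0.52, adjusted p = 0.00505), for which the whole-embryo fold changes were 2.13 and 1.69.

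Arterial and Notch genes rose in 16 of 26 cases, against 28.0% of all genes, and fell in 4 (median 1.22). The falls numbered 1 without FACS sorted 1 or AngioTag IP 3 and 2 without AngioTag IP 2. In whole embryos 13 of 25 rose, against 25.2% of all genes, with a median of 1.01. In both comparisons 12 rose, as did 3594 of 18006 genes tested in both. The test of the difference called 5 of 26 higher, against 5.12% of all genes, and 1 lower. With any 1 library left out it called 1 to 8 higher. The Notch ligand gene dll4 had 995, 947 and 244 CPM in FACS sorted and 46.1, 47.9 and 67.0 CPM in the AngioTag IP (3.79 ± 0.51, adjusted p = 0.000354), with FACS sorted 3 the lowest sorted sample yet above all IP samples. NOTCH3, a Notch receptor, rose (5.18 ± 0.45), as it did in whole embryos (3.61), and the ephrin ligand gene EFNB2 (ENSDARG00000020164) rose by 1.44 ± 0.28. The Notch ligand gene jag1a fell (-1.65 ± 0.37). Among venous and lymphatic genes 10 of 20 rose, against 28.0% of all genes, and 4 fell, and 6 rose without AngioTag IP 1. The scavenger receptor gene stab1 had 700, 541 and 444 CPM in FACS sorted and 125, 93.9 and 173 CPM in the AngioTag IP (2.13 ± 0.31, adjusted p = 0.000561), and ephb4a, the ephrin receptor of veins (2.65 ± 0.27), and FLT4, the VEGF-C receptor (1.28 ± 0.26), rose. The nuclear receptor NR2F2, which specifies vein identity and is also made outside endothelium, was lower in sorted cells, with 34.6, 31.6 and 41.4 CPM in FACS sorted and 122, 223 and 159 CPM in the AngioTag IP (-2.19 ± 0.29, adjusted p = 0.000295). It had 91.6, 100 and 61.1 CPM in FACS total and 136, 153 and 145 CPM in AngioTag input, so the sorted samples were the lowest of the 4 groups. Its relative NR2F1 fell by 2.07 on the log2 scale.

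Blood genes were higher in sorted cells, with much of that in FACS sorted 3. Of 27 erythroid genes 15 rose, against 28.0% of all genes (median 2.48). The count was 10 without AngioTag IP 2 and, the other way, 25 without FACS sorted 2 and AngioTag IP 1, the libraries high in zgc:158463 (median 3.08). In whole embryos 12 of 27 rose (median 1.05), against 25.2% of all genes, or 5 to 18 with any 1 library left out. In both comparisons 12 rose, as did 3594 of 18006 genes tested in both. The test of the difference called 0 of 27, against 8.12% of all genes, or 7 higher without FACS sorted 2, and DESeq2 called 4. The erythroid factor klf1 had 9.54, 2.75 and 129 CPM in FACS sorted and 0.746, 0.568 and 0.904 CPM in the AngioTag IP (6.03 ± 1.31, adjusted p = 0.00421), and the transferrin receptor gene tfr1a had 161, 30.2 and 976 CPM in FACS sorted and 5.05, 1.55 and 2.36 CPM in the AngioTag IP (7.07 ± 1.23, adjusted p = 0.00138). Sorted samples were higher in both genes, and sample 3 was several times the others. The heme synthesis gene alas2 (3.21 ± 0.78), the anion exchanger gene SLC4A1 (ENSDARG00000012881, 3.71 ± 0.78) and the erythropoietin receptor gene EPOR (4.08 ± 0.90) rose. Of 6 globin genes, 0 passed the edgeR test, with 2 at an unadjusted p below 0.05 and 3 called by DESeq2. The one with the most counts, hbae1.2, had 3547, 2806 and 14313 CPM in FACS sorted and 3522, 1339 and 3224 CPM in the AngioTag IP (1.38 ± 0.62, adjusted p = 0.0857). Without FACS sorted 3 the median of the erythroid list was 0.84 with 12 genes higher, and the globin fold changes ran from -0.22 to 0.76. Summed erythroid levels were 11052, 9048 and 49201 CPM in FACS sorted and 12964, 4603 and 9946 CPM in the AngioTag IP, so samples 1 and 2 lay within the IP range.

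The same sample held other transcripts at high levels. The pteridine pigment gene gch2 had 42.1, 21.5 and 928 CPM in FACS sorted and 13.8, 29.9 and 16.2 CPM in the AngioTag IP (4.08 ± 1.23, adjusted p = 0.0201, and 0.00107 to 0.179 over the alternatives, the highest without FACS sorted 3). Its call was also lost without AngioTag IP 1 (0.0653), IP 2 (0.0521) or IP 3 (0.0703), and with the replicate block (0.139). Pigment and neural crest genes rose in 6 and fell in 6 of 23 cases, near the shares of all genes (28.0% and 23.8%), and 3 rose without AngioTag IP 2 or 3. The part of this sample's composition in the differences was not tested beyond leaving it out. Myeloid genes rose in 19 of 36 cases, against 28.0% of all genes, and fell in 1, and 12 rose without AngioTag IP 2. LCP1, a leukocyte actin bundler, had 154, 209 and 154 CPM in FACS sorted and 69.2, 52.3 and 89.2 CPM in the AngioTag IP (1.33 ± 0.28, adjusted p = 0.00387). The matrix protease genes MMP9 (6.37 ± 0.43) and mmp13a (5.04 ± 0.47) rose more, and did so in whole embryos too (6.04 and 4.81). Blood progenitor genes rose in 6 of 15 cases, against 28.0% of all genes. Among them were KIT, the stem cell factor receptor (4.05 ± 0.64), and the progenitor factor MYB, with 124, 92.0 and 345 CPM in FACS sorted and 24.4, 23.7 and 26.5 CPM in the AngioTag IP (2.94 ± 0.48, adjusted p = 0.000926).

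**Figure D5:**
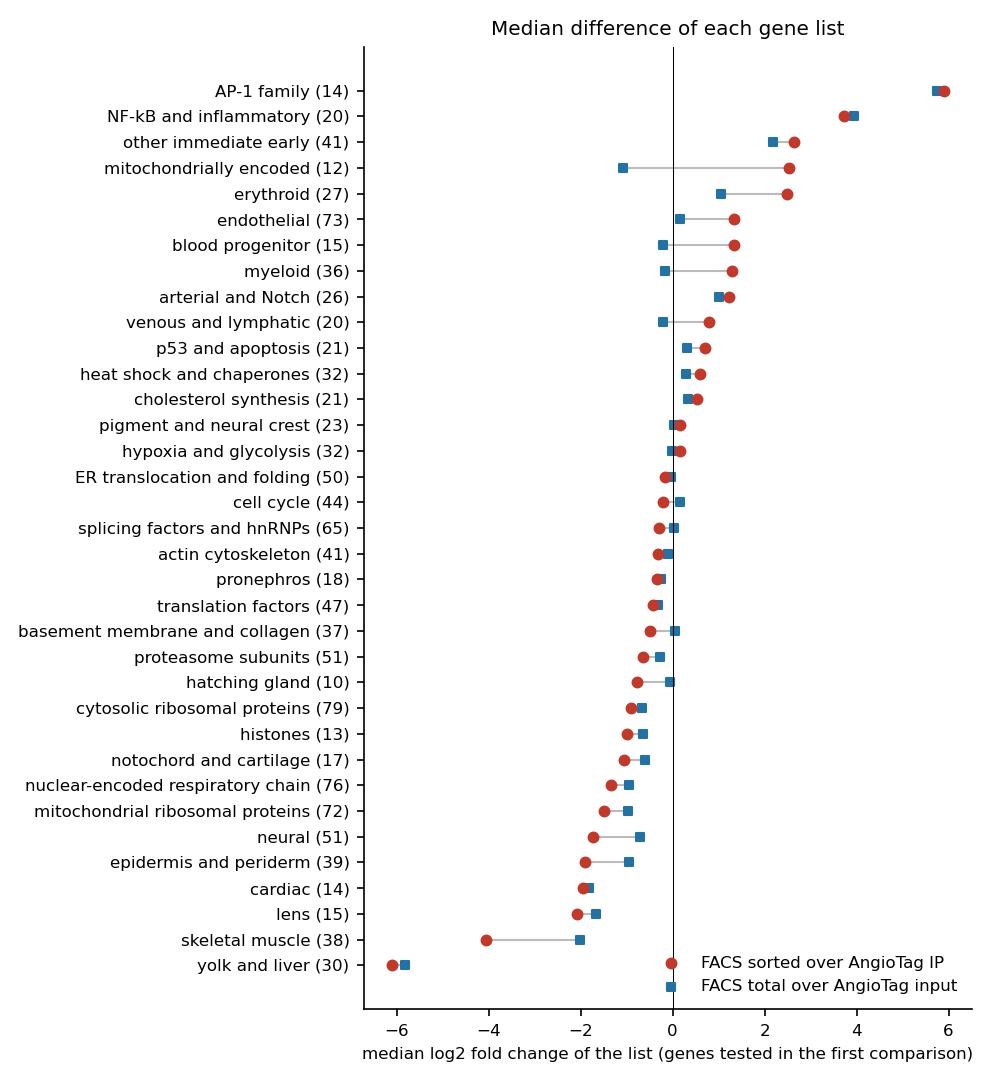
Median log2 fold change of 35 gene lists, with the number of genes tested in brackets, for FACS sorted over AngioTag IP (circles) and FACS total over AngioTag input (squares). The medians are close for AP-1 (5.91 and 5.76) and yolk genes (-6.11 and -5.82), and on opposite sides of 0 for mitochondrially encoded genes (2.52 and -1.09).

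Lists of matrix, cytoskeleton and lipid genes had counts near the shares of all genes (28.0% higher, 23.8% lower), and single genes within them differed. Basement membrane and collagen genes rose in 12 and fell in 11 of 37 cases. COL4A2, a chain of the vascular basement membrane, had 161, 71.7 and 65.7 CPM in FACS sorted and 7.69, 1.96 and 3.10 CPM in the AngioTag IP (4.59 ± 0.60, adjusted p = 0.000292), and the perlecan gene HSPG2 rose by 3.53 ± 0.48. The collagen VI gene COL6A2 (-3.22 ± 0.48) and the fibrillar collagen gene COL5A1 (-2.73 ± 0.59) fell. Actin cytoskeleton genes rose in 11 and fell in 13 of 41 cases. SRF, the factor that drives actin and immediate early genes, had 42.8, 18.3 and 29.9 CPM in FACS sorted and 0.516, 0.155 and 0.110 CPM in the AngioTag IP (7.07 ± 0.63, adjusted p = 4.27e-05), and the thymosin gene tmsb1, which encodes an actin-binding peptide, fell by 3.36 on the log2 scale. Among 21 cholesterol genes 8 rose and 6 fell (5 and 3 without FACS sorted 1, 5 rose without AngioTag IP 2), with the regulator genes SREBF1 (7.67 ± 0.61) and insig1 (3.46 ± 0.45) higher and the enzyme gene ACAT2 (-1.18 ± 0.27) lower. Cell cycle genes rose in 5 and fell in 6 of 44 cases and splicing genes rose in 8 and fell in 15 of 65. These counts were at or below the shares of all genes (28.0% and 23.8%), and the counts of falls changed with single libraries. Without FACS sorted 1, AngioTag IP 1 or AngioTag IP 3 cell cycle falls numbered 3, and splicing falls numbered 7 without FACS sorted 1 and 9 without AngioTag IP 1 or 3. The cyclin gene CCNB1 (-1.36 ± 0.28) and the RNA-binding gene taf15 (-1.50 ± 0.28) fell, and the helicase gene DDX5 (1.58 ± 0.29) rose.

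Of the 12 largest rises and 12 largest falls, 7 falls were apolipoprotein genes, 4 rises were the immediate early or inflammatory genes described above, and the others are given here. SKIL, a repressor of TGF-beta signalling, had 43.1, 15.3 and 46.1 CPM in FACS sorted and no IP count, at least 1076-fold higher against the floor of 3 counts over the group. The coagulation starter gene f3a had 100, 75.1 and 26.9 CPM in FACS sorted and 0, 0.0775 and 0.0274 CPM in the AngioTag IP (10.54 ± 0.77, adjusted p = 2.03e-05). The thrombin receptor gene F2R had 106, 47.3 and 48.1 CPM in FACS sorted and 0.229, 0.129 and 0.0822 CPM in the AngioTag IP (8.97 ± 0.57, adjusted p = 1.45e-05). All 3 genes had separate groups. Plasminogen activator, PLAT (8.68 ± 0.62), the tensin tns2a (8.93 ± 0.84), dennd4a (9.20 ± 0.45), LZTS2 (9.35 ± 0.63) and FAM83C (9.23 ± 0.71) also rose. In whole embryos the fold changes were 5.59 for PLAT, 5.68 for tns2a and 6.36 for dennd4a. On the other side, the actin gene actc1c had 0, 0 and 0.279 CPM in FACS sorted and 72.4, 122 and 138 CPM in the AngioTag IP (-9.89 ± 0.84, adjusted p = 3.45e-05). Its levels in the RiboTag IP were 0.754, 0.700 and 1.55 CPM and in AngioTag input 0.414, 1.25 and 0.731 CPM, so only the AngioTag IP of these groups was above 2 CPM. The endocytic adaptor gene hip1ra had 2.93, 3.2 and 2.16 CPM in FACS sorted and 2138, 228 and 303 CPM in the AngioTag IP (-8.34 ± 1.01, adjusted p = 0.000197), with AngioTag IP 1 far above the others. The apolipoprotein gene APOB (-9.83 ± 0.97), afp4 (-9.54 ± 0.60), the plasma protein gene fetub (-8.16 ± 0.65) and PLA2G12B, which acts in lipoprotein secretion (-8.13 ± 0.54), completed the falls. In that order, their whole-embryo fold changes were -8.45, -8.59, -7.89 and -8.59.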

How the data were processed

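The authors deposited unnormalized gene counts under Ensembl identifiers for all 18 libraries. Per the submitters' processing notes, STAR 2.4.2a, RSEM 1.2.22, DESeq2 and genome build GRCz10 were used, with roles not stated, so the counts may be rounded estimates. Of 25193 genes, 22548 (89.5%) were given a symbol; its capitals are kept as printed in the name table. Genes were tested in R 4.3.3 with edgeR 4.0.16 (quasi-likelihood F test) on the groups compared, with filterByExpr (minimum count 10, minimum total 15), TMM scaling and Benjamini-Hochberg adjustment over all genes tested at 0.05. An SE was derived as the size of the log2 fold change over the root of the F statistic. CPM were scaled with TMM over 18 libraries and 20517 genes. Median-of-ratios scaling moved the median log2 fold change of all genes by 0.13 (0.16 in the difference between the differences). Intervals and floors cover counting error only. The script was tested on simulated data.

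Members and 35 gene lists (1429 entries, 1194 matched, 156 of them by alias, 1237 genes) were chosen with earlier results of these data known. Named genes are fosab, mt-co1 and kdrl, the 12 largest rises and falls (average log2 CPM of at least 4, a symbol without a colon, no overlap of libraries, calls that held with any 1 library left out), and up to 4 members per list in its main direction and 2 in the other (log2 CPM of at least 2); more members were picked with their values in view. The alternatives tried were other scalings, DESeq2 1.42.0, no filter, a filter of 1 CPM in 3 libraries, all 18 libraries in 1 fit, a replicate block, mitochondrially encoded genes and zgc:158463 left out, and each library left out. A fit without FACS sorted 2 and AngioTag IP 1 was chosen after seeing the data. Sample pairs of a group differed by 17.4 to 534.9 times counting error (chi-square per degree of freedom), so none was a duplicate. Promoter and protein sequences were not used here.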

Additional observations from a re-analysis of the deposited data

Results flagged for a closer look

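Among fosab, mt-co1, kdrl, the 12 largest rises and the 12 largest falls, there were 9 genes in which the difference between FACS sorted and AngioTag IP departed from that between FACS total and AngioTag input, by the edgeR test of the difference itself over 12 libraries. The rises and falls were picked by their FACS sorted over AngioTag IP change, which is part of this contrast. Departures in that direction are therefore partly built in, and the count of 9 is only a description. Over all genes the test called 8.12%, and its calls were sensitive to single libraries. The difference of log2 fold changes was 4.04 for mt-co1 (adjusted p = 0.000248). It was 7.60 for SKIL (adjusted p = 0.0202), a fitted value against an IP group at 0 that depends on the prior count. It was 5.01 for FAM83C (adjusted p = 0.00887), 4.66 for F2R (adjusted p = 0.00172) and 4.03 for LZTS2 (adjusted p = 0.0152). It was 3.52 for f3a (adjusted p = 0.0383) and 2.72 for dennd4a (adjusted p = 0.0281). A departure is not the absence of a change in whole embryos. For dennd4a the whole-embryo fold change, given above, was in the same direction and smaller. Lower values were found for actc1c, at -8.27 (adjusted p = 0.00172), and hip1ra, at -7.64 (adjusted p = 0.00148). With 3 samples a group no sample was tested as an outlier.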

How the results depend on the processing

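The counts of genes higher and lower in FACS sorted over AngioTag IP stayed within 1.5 times of 5179 and 4409 in every alternative run, and with any 1 library left out ran from 4245 to 5354 and from 3088 to 4379. So did the counts of AP-1 (13 to 14), mitochondrially encoded (11 to 12), endothelial (37 to 44) and skeletal muscle genes (31 to 33). Genes lower in FACS total over AngioTag input numbered 2488 with all 18 libraries in 1 fit, and 2372 to 6002 with any 1 library left out (higher, 3518 to 6367). DESeq2 called 2154 genes higher and 924 lower in the difference between the differences, and leaving out 1 library gave 403 to 1251 and 99 to 736. With median-of-ratios scaling the share of higher calls there was 77.0% against 63.0%. Mitochondrially encoded genes have no value where they are left out. The replicate block gave 4638 and 3646 calls. Deviations of same-numbered samples from their group means correlated at -0.07, -0.10 and 0 for FACS sorted with AngioTag IP. For FACS total with AngioTag input they correlated at 0.03, -0.19 and -0.11. The numbers were therefore not taken as pairs across preparations, and not every sample correlated best with its own number. Pairing within a preparation (FACS sorted with FACS total, AngioTag IP with AngioTag input) was not checked. The test of the difference took all its libraries as independent. Of 247 named genes with a call, 23 lost it under at least 1 alternative, and 0 of 3748 values reversed. The causes were not tested. Genes under about 1 CPM rest on few counts.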
